A study of Mus musculus with 6 samples.

Results

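MicroRNA levels in mouse embryoid bodies carrying the M1652I form of human BRCA1 (MI) were compared with those in embryoid bodies carrying wild-type human BRCA1 (WT). The arrays titled as MI replicates 1 and 2 and WT replicates 1 and 2 were taken, 4 of the 6 arrays in all. The other 2 arrays held embryoid bodies with the R1699Q form (RQ) and served in the shared estimate of spread and in 1 comparison with MI. All groups share the strain 129S7/SvEv Brd-Hprt b-m2, a human BRCA1 in mouse cells and collection on day 7. Per the labels, stem cells were cleared of feeder cells on gelatin and grown in DMEM-10. Each group has 2 arrays described as biological replicates; the labels do not state whether these came from separate cultures, so the p-values cover only the variation among these samples, possibly technical. The number of stem cell clones per genotype is likewise not stated. Of 334 mouse microRNA probes, 294 were tested.

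BRCA1 is a tumour suppressor of DNA break repair, and both M1652I and R1699Q change a residue of its C-terminal BRCT repeats, which bind phosphorylated partner proteins. Embryoid bodies are aggregates in which embryonic stem cells leave pluripotency and begin to form the cell types of the embryo. A microRNA guides the silencing complex to messenger RNAs that match its seed, bases 2 to 8 of the mature strand, and microRNAs with one seed share many predicted targets. The miR-290 and miR-302 and miR-367 clusters mark pluripotent and early differentiating cells, the miR-200 family epithelial cells, and miR-26, miR-181 and let-7 accumulate as cells differentiate. The question was which microRNAs differ between M1652I and wild-type embryoid bodies.

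Mature sequences from the RefSeq table of GRCm38.p6 matched 275 of the 334 probes and 239 of the 294 tested. Those printed here are microRNAs with large calls, and beside them relatives with the same seed; capitals mark the seed. The first set holds falls in MI (miR-302d, miR-367, miR-200a, miR-26a, miR-26b, miR-210 and miR-499) and 3 relatives that were not called (miR-294, miR-295 and miR-141).
miR-302d: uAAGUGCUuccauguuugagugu
miR-294: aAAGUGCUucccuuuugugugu
miR-295: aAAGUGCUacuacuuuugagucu
miR-367: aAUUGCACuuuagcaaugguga
miR-200a: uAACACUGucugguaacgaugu
miR-141: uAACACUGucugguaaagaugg
miR-26a: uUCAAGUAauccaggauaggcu
miR-26b: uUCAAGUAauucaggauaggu
miR-210: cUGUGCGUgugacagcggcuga
miR-499: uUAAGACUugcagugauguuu

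The second set holds rises in MI (the miR-181 family, miR-7, miR-491, miR-206 and miR-706) and miR-7b, which shares the seed of miR-7 and was not called.
miR-181a: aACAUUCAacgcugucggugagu
miR-181b: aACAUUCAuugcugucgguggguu
miR-181c: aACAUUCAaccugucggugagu
miR-7: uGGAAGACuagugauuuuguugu
miR-7b: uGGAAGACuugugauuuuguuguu
miR-491: aGUGGGGAacccuuccaugagg
miR-206: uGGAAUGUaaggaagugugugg
miR-706: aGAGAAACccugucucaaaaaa

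Each array had 2 colours. RNA of the group was in Cy3 and a reference, labelled as wild-type embryoid bodies, in Cy5, with no dye swap. Net signals below are mean spot intensity minus local background, and ratios are log2 of Cy3 over Cy5 after normexp background correction and loess. The MI and WT arrays had 248 to 255 probes well above background in Cy3 and 262 to 270 in Cy5, and the median net Cy3 signal of a tested probe was 169 to 243. On the slide the WT pair occupies its own row and all mutant arrays share another, so row and genotype cannot be told apart.

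The reference channel read unlike the Cy3 channel that bears the same label. On the WT arrays, where both channels are labelled as wild-type embryoid bodies, 80 of 294 tested microRNAs had a mean log2 ratio over 1 and 82 one below -1. miR-294 read 18568 to 32466 in net Cy3 on the MI and WT arrays and 29.3 to 46.0 in net Cy5, while miR-1 of muscle read 184 to 224 in Cy3 and 6936 to 7428 in Cy5. Without a dye swap, dye and RNA source cannot be told apart here. Ratios were therefore used only to compare arrays with each other and not as levels against wild type.

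The embryoid body label was checked against cell type markers in Cy3. All 7 miR-290 cluster probes were well above background on all 4 MI and WT arrays, with a median net Cy3 of 6834 to 9031 per array, and so were 3 of the 5 miR-302 and miR-367 probes. Among markers of other lineages, 7 of 7 mesenchymal probes, 6 of 9 neural, 3 of 5 muscle and heart, 3 of 8 blood, 2 of 5 Hox cluster and 1 of 6 endoderm and liver probes were well above background on all 4 arrays. The endothelial miR-126-5p was not well above background on any of them.

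Replicates lay closer together than the groups. The median absolute difference between replicates was 0.201 log2 units for WT and 0.131 for MI, and the median absolute change from WT to MI was 0.278. In MI, 46 of 294 microRNAs passed an adjusted p under 0.05 in limma, which is 15.6% of those tested, and 108 had an unadjusted p under 0.05. Of the 46, 27 were higher (9.18% of those tested) and 19 lower (6.46%). The MI arrays lay clear of the WT arrays for 201 microRNAs (68.4%), above them for 134 (45.6%) and below them for 67 (22.8%). The median change over all tested microRNAs was 0.11, so the centre of the comparison lay slightly above 0.

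**Figure D1:**
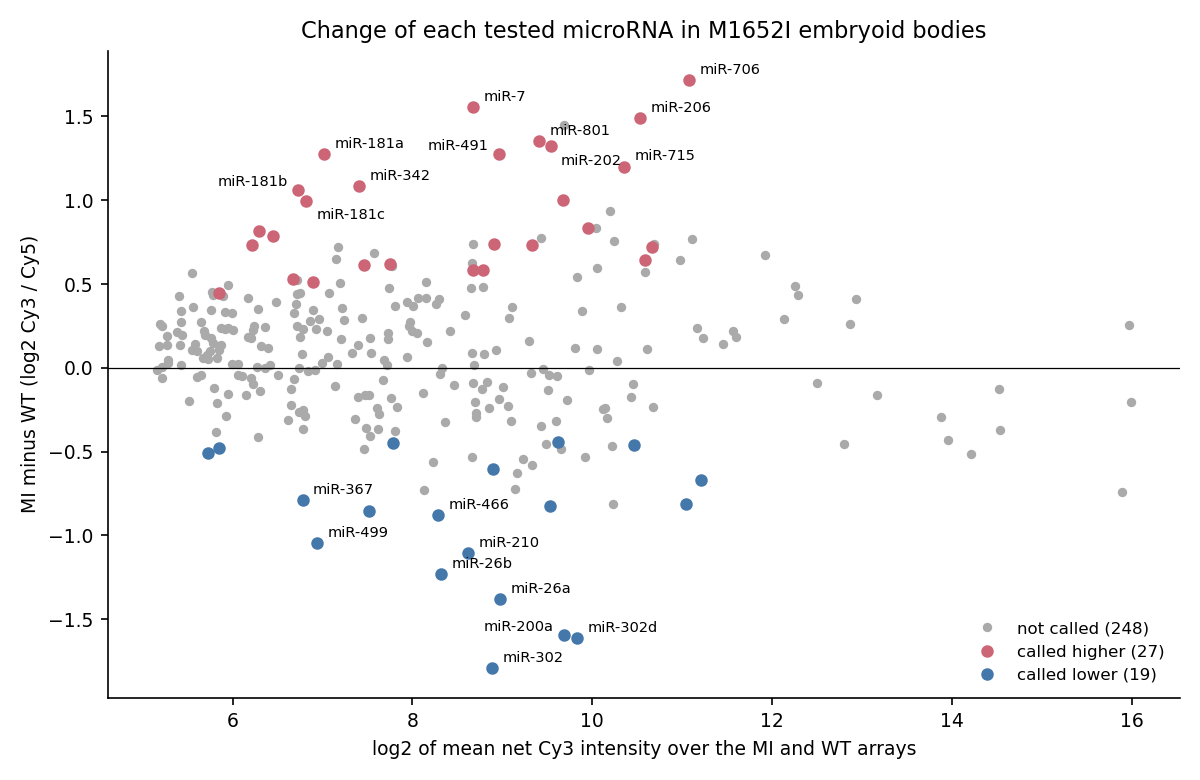
Change from WT to MI (log2 Cy3 over Cy5) of each of 294 tested microRNAs against log2 of its mean net Cy3 intensity over the 4 arrays; each point is 1 microRNA, and colours mark 27 called higher, 19 called lower and 248 not called. miR-302, miR-302d and miR-200a have the lowest changes, miR-706, miR-7 and miR-206 the highest.

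How the arrays were scaled bore on the rises more than on the falls. With loess restricted to bright probes, median-centred ratios, Cy3 alone or the scanner's processed ratios, the rises numbered 9 to 17 and the falls 21 to 25. The share of rises among calls was 58.7% with loess, 44.7% with median centring, 28.6% with Cy3 alone, 28.1% with the processed ratios and 40% when loess used bright probes. Under all 5 scalings, 19 microRNAs were called in 1 direction (6.46%), 13 of them lower (4.42%) and 6 higher (2.04%). The 13 were miR-302, miR-302d, miR-367, miR-200a, miR-26a, miR-26b, miR-210, miR-499, miR-466, miR-467*, miR-532, miR-501 and miR-299. The 6 were miR-181a, miR-181b, miR-181c, miR-7, miR-491 and miR-801. For 11 of the 27 rises and 2 of the 19 falls, no other scaling gave a call.

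Single arrays bore on the count too. Without MI replicate 1, 6 microRNAs passed, and without MI replicate 2, 19 did. Dropping WT replicate 1 gave 28, dropping WT replicate 2 gave 63, and dropping an RQ array gave 27. The MI and WT arrays alone gave the same 27, since a lone RQ array adds nothing to the spread, so these are not separate checks. The 6 that passed whichever array was left out were miR-302d, miR-200a, miR-26a, miR-181a, miR-7 and miR-491. They also passed under all 5 scalings.

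**Figure D2:**
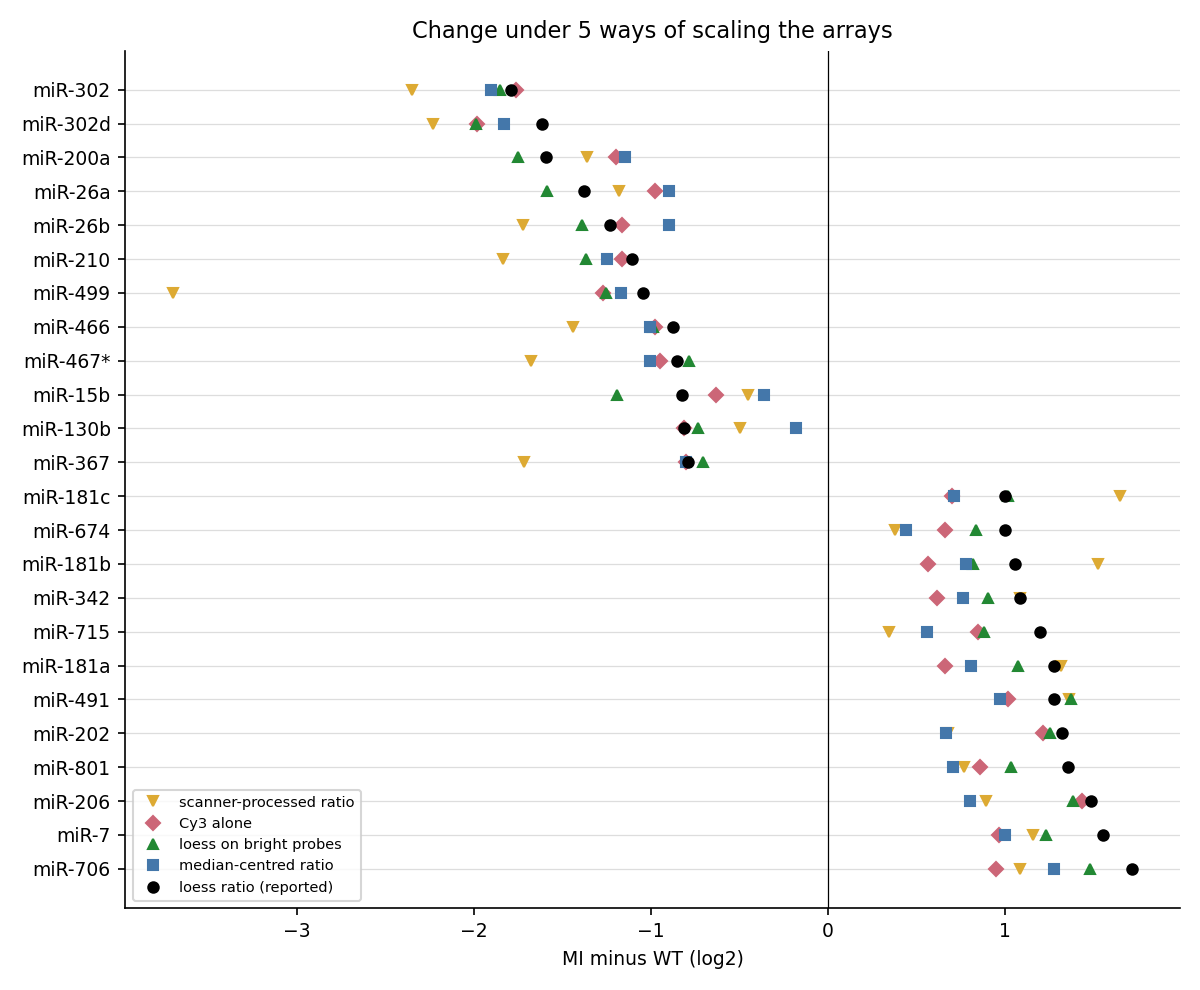
Change from WT to MI (log2) of the 12 largest called falls and 12 largest called rises under 5 scalings, each marked by its own symbol. Every fall stays left of 0 and every rise right of it, and miR-130b and miR-15b come closest to 0 among the falls, at -0.18 and -0.36 with median centring.

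The miR-302 and miR-367 cluster fell in MI. This cluster is switched on as pluripotent cells begin to differentiate. Of its 4 tested members 3 were called lower and 0 higher, with a median change of -1.20 against 0.11 over all tested microRNAs. miR-302d and miR-367 are neighbours on the + strand of chromosome 3 (chr3:127545624-127545689 and chr3:127545733-127545807, GRCm38.p6), within the span of Larp7.

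miR-302d had a net Cy3 signal of 1628 and 1290 on the WT arrays and 353 and 375 on the MI arrays. Its log2 ratio was 4.15 and 4.02 in WT against 2.39 and 2.56 in MI. The MI arrays lay below both WT arrays, and so did every single spot: spots read 984 to 2204 in WT and 287 to 407 in MI. The fall was 1.61 ± 0.12 (log2 ratio with its SE, 2 arrays in each group, limma adjusted p = 0.0028), a 3.06-fold difference.

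miR-302, a further cluster member named as in the array's design, read 1041 and 482 in net Cy3 on the WT arrays and 159 and 206 on the MI arrays. Its ratio was 3.72 and 2.81 in WT and 1.35 and 1.60 in MI, with a gap between the groups despite the spread in WT. The ratio fell by 1.79 ± 0.29 (limma adjusted p = 0.0132), 3.47-fold. Without MI replicate 1 or MI replicate 2 it missed the threshold, with limma adjusted p = 0.101 and 0.064. Over the probes' first 22 bases miR-302 and miR-302d differ at 3, and whether they share signal was not tested.

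miR-367, whose seed differs from that of miR-302d, read 143 and 147 in net Cy3 in WT and 69.1 and 79.8 in MI. Its ratio was 1.33 and 1.31 in WT and 0.55 and 0.52 in MI, tight in either group and not overlapping. It fell by 0.79 ± 0.10 (limma adjusted p = 0.00604). The remaining member, miR-302c*, changed by -0.20 (95% interval -0.57 to 0.17) and was not called. It was well above background in Cy3 on 1 of 2 WT arrays and on 0 of 2 MI arrays.

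In Cy5 the probes of miR-302, miR-302d and miR-367 were not well above background on any array, so their ratios divide by a signal near the background. With Cy3 alone the changes were -1.76, -1.98 and -0.80, all called.

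The miR-290 cluster, the other large stem cell cluster, was not called. Of its 7 tested members 0 were called in either direction, beside 15.6% of all tested microRNAs. The changes were positive in 4 and negative in 3, with a median of 0.34. miR-294 and miR-295 carry the seed of miR-302d. miR-294 had ratios of 9.48 and 9.42 in WT and 8.79 and 9.36 in MI, a change of -0.37 (95% interval -0.86 to 0.11). These ratios divide by the low Cy5 signal of miR-294 given above. The change of miR-295 was -0.43 (95% interval -1.21 to 0.34). Among the 3 tested microRNAs with the seed AAGUGCU, then, 1 was called, and the difference in change between them was not tested. In bulk samples, fewer cells of a type and less RNA per cell cannot be told apart.

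**Figure D3:**
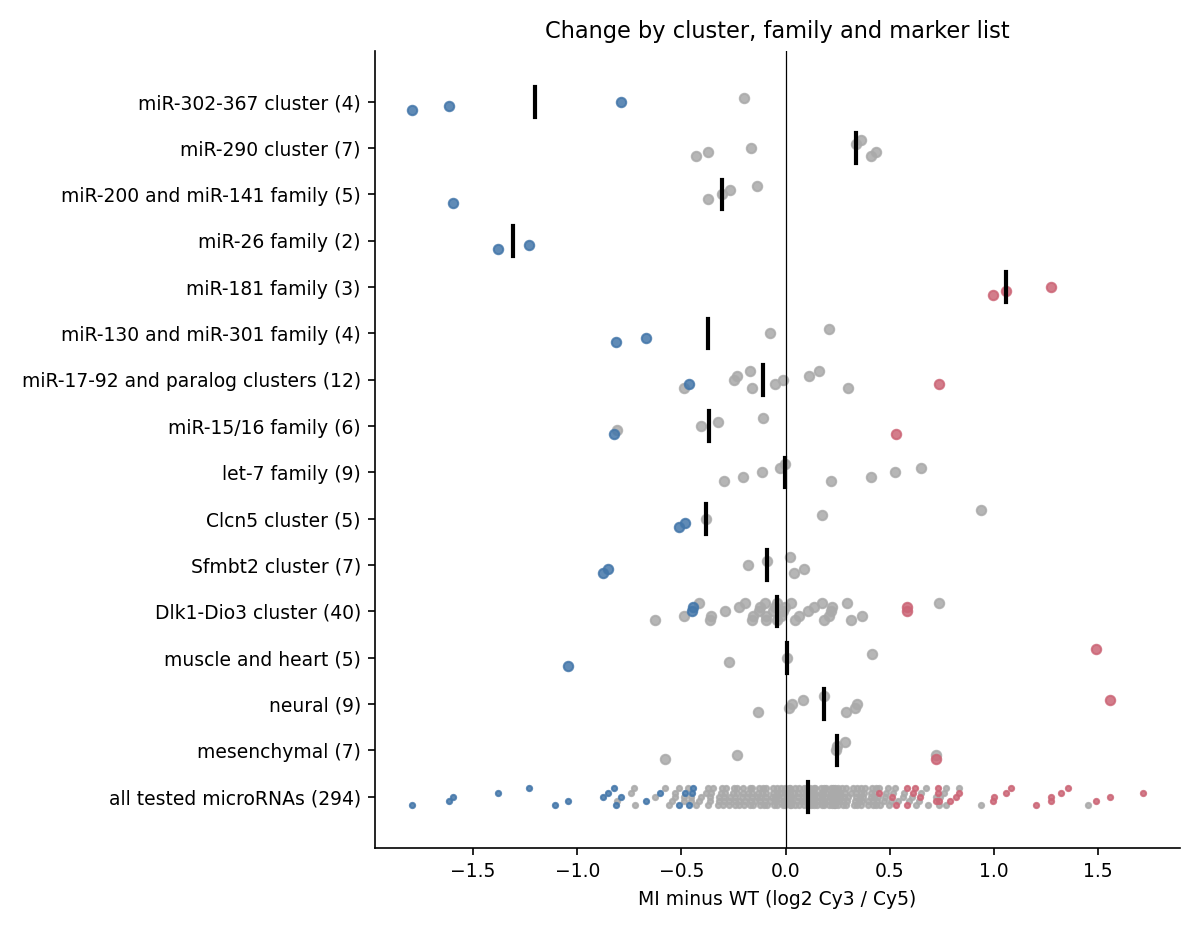
Change from WT to MI (log2) of the tested members of 15 clusters, families and marker lists and of all 294 tested microRNAs, with the number tested in brackets; points are microRNAs (red called higher, blue called lower, grey not called) and black bars are medians. The miR-302 and miR-367 and miR-26 members lie mostly far to the left, the 3 miR-181 members to the right.

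The miR-26 family fell as a pair, with 2 of 2 members called lower and a median change of -1.31. miR-26a and miR-26b share the seed UCAAGUA, differ at 4 of 22 probe bases and lie within the spans of 3 Ctdsp genes. These are Ctdspl (chr9:119031796-119031885, +), Ctdsp2 (chr10:126995530-126995613, +) and Ctdsp1 (chr1:74394310-74394394, +), which encode phosphatases of the RNA polymerase II tail.

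For miR-26a, net Cy3 was 874 and 529 in WT and 279 and 327 in MI, and the ratio -0.50 and -0.63 against -1.86 and -2.02. Its lowest WT spot read 471 and its highest MI spot 357, so the groups were apart spot by spot. The fall was 1.38 ± 0.13 (log2, SE; limma adjusted p = 0.00375), or 2.60-fold. It was smaller with median centring, where it fell by 0.90.

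For miR-26b, net Cy3 was 583 and 348 in WT and 163 and 182 in MI, with ratios of -0.81 and -1.27 against -2.19 and -2.35. No MI array reached a WT array. It fell by 1.23 ± 0.19 (limma adjusted p = 0.0114), and missed the threshold without MI replicate 1 (adjusted p = 0.0607) or MI replicate 2 (adjusted p = 0.074).

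The miR-181 family rose as a whole, with 3 of 3 members called higher and a median change of 1.06. These microRNAs are known for tuning T cell receptor signalling and are found in differentiating tissues. miR-181a and miR-181b are encoded side by side at 2 places, chr1:137966455-137966718 (+) and, within the span of Nr6a1, chr2:38852735-38853918 (+), and the array does not tell the copies apart.

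miR-181a read 100 and 87.8 in net Cy3 in WT and 150 and 181 in MI. Its ratio was -3.84 and -3.62 in WT and -2.40 and -2.50 in MI, without overlap, and rose by 1.28 ± 0.12 (limma adjusted p = 0.00375). miR-181b rose by 1.06 ± 0.13 (limma adjusted p = 0.00599), from ratios of -3.19 and -3.16 to -1.98 and -2.24. miR-181c had ratios of -1.91 and -1.94 in WT and a mean of -0.93 in MI, and rose by 1.00 ± 0.11 (limma adjusted p = 0.00464). All 3 were called with Cy3 alone as well, at smaller changes of 0.66, 0.56 and 0.70. The miR-181a probe and that of miR-181c differ by 2 of 22 bases, and whether they share signal was not tested.

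**Figure D4:**
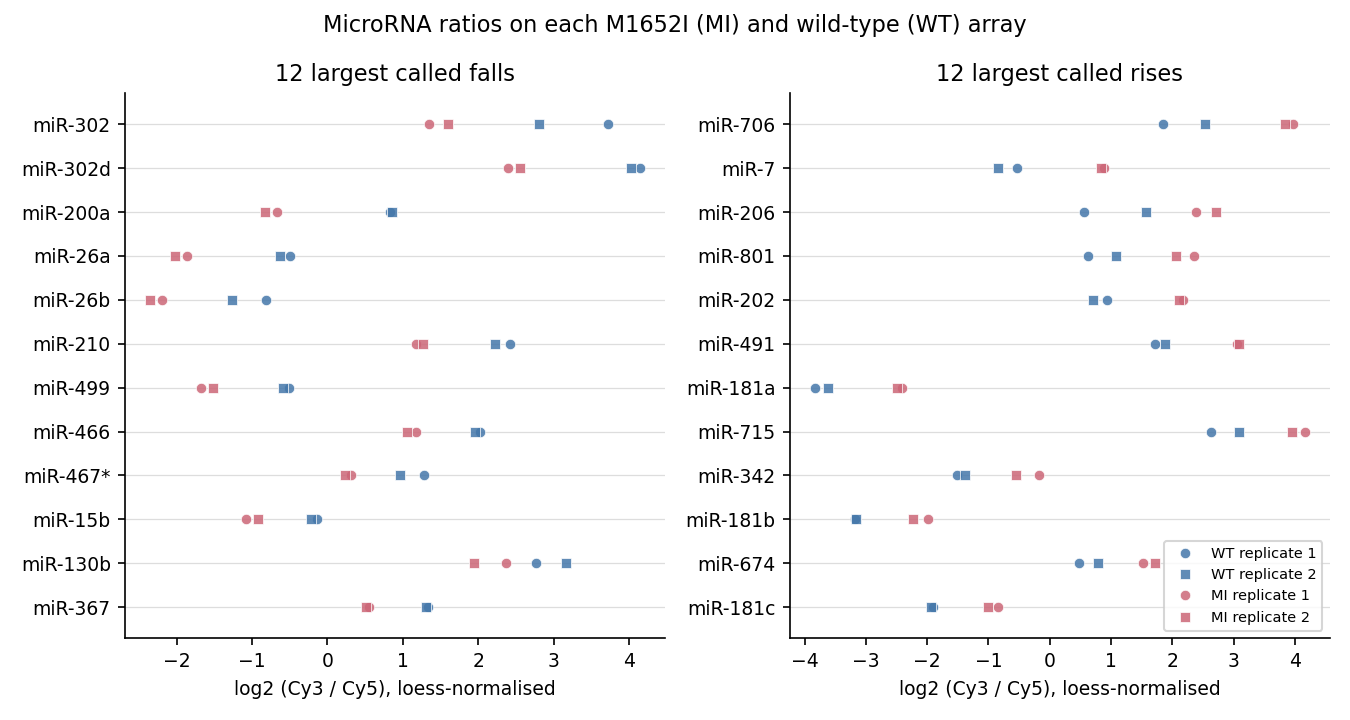
Loess-normalised log2 Cy3 over Cy5 ratio on each of 4 arrays (blue WT, red MI; circle replicate 1, square replicate 2) for the 12 largest called falls and the 12 largest called rises. In each row shown the 2 MI arrays lie on one side of the 2 WT arrays.

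In the epithelial miR-200 and miR-141 family 1 of 5 members was called, beside 46 of all 294 tested (15.6%). All 5 had negative changes, as did 117 of the 294, with a median of -0.30 against 0.11. miR-200a read 1446 and 878 in net Cy3 in WT and 451 and 509 in MI, with ratios of 0.84 and 0.86 against -0.66 and -0.83. It fell by 1.59 ± 0.18 (limma adjusted p = 0.00464), 3.02-fold. miR-141 has the same seed, AACACUG, and differs at 2 of 22 probe bases, but changed by -0.14 with loess (95% interval -0.47 to 0.19). It was called lower with Cy3 alone (-0.39) and with the processed ratios (-0.98). Its net Cy3 was 105 and 75.5 in WT and 63.5 and 72.3 in MI.

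miR-200b and miR-429 are neighbours of miR-200a on the - strand of chromosome 4 (chr4:156053905-156055750). They changed by -0.37 (limma adjusted p = 0.0796) and -0.27 (adjusted p = 0.226). miR-200b and miR-200c, at -0.30 with loess, were called lower under each of the other 4 scalings, and were the only microRNAs not called with loess of which this held. Their changes there ran from -0.52 to -1.32. Whether miR-200a differs in its change from the other members was not tested.

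The miR-130 and miR-301 family had 2 falls among 4 members, beside 6.46% called lower among all tested microRNAs, with a family median of -0.37. miR-130b had ratios of 2.77 and 3.16 in WT and 2.37 and 1.94 in MI and fell by 0.81 ± 0.20 (limma adjusted p = 0.0424). miR-130a fell by 0.67 ± 0.14 (limma adjusted p = 0.034). Their probes differ at 2 of 22 bases. miR-130b was called under no other scaling and miR-130a under 1, and with median centring they changed by -0.18 and -0.16. miR-301 and miR-301b changed by 0.21 and -0.07 and were not called.

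Several calls were microRNAs known from a single tissue or state. miR-210, a target of the hypoxia-inducible factors, had net Cy3 of 675 and 469 in WT and 194 and 233 in MI. Its ratio was 2.43 and 2.23 in WT and 1.17 and 1.27 in MI, and it fell by 1.11 ± 0.14 (limma adjusted p = 0.00604), 2.15-fold. It was the array's only member of the hypoxia list.

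miR-7, a microRNA of neurons and endocrine cells, was the only called member among 9 neural ones. Its net Cy3 rose from 342 and 226 in WT to 491 and 578 in MI, and its ratio from -0.54 and -0.85 to 0.89 and 0.84. The rise was 1.56 ± 0.14 (limma adjusted p = 0.00375), 2.94-fold. The probe of miR-7b differs at 3 of 22 bases and changed by 0.10 (95% interval -0.16 to 0.35), but it was well above background in Cy3 on 0 of 2 WT arrays and 1 of 2 MI arrays, so a change in it could hardly be measured. The neural members that were not called included miR-128a at 0.34 and miR-128b at 0.29. miR-9 had a change of 0.34 but was well above background in Cy3 on 0 of 2 MI arrays. In all, 8 of the 9 had positive changes and the median was 0.18, beside 177 of 294 and 0.11 over all tested microRNAs. Of all tested, 15.6% were called. Among the positive neural probes, miR-137 and miR-153 were not well above background in Cy3 on any MI or WT array.

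Muscle and heart microRNAs moved in both directions, with 1 rise and 1 fall among 5 and a median of 0.01. Of all tested microRNAs 9.18% were called higher and 6.46% lower. miR-499, within the span of the slow myosin gene Myh7b (chr2:155622880-155622958, +), fell. It read 218 and 154 in net Cy3 in WT and 53.5 and 65.7 in MI, where it was not well above background on either array. Its ratio fell by 1.05 ± 0.13 (limma adjusted p = 0.00599). In normalised Cy3 the signal was 2.30-fold lower in MI. That value sets the WT mean against the higher, on each MI array, of the probe's own signal and the lowest signal well above background. The probe's own signal was the higher, so the value is the observed difference, given without an error. No dyes were swapped, so dye bias can enter this value.

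miR-206, a skeletal muscle microRNA, was called higher, at ratios of 0.55 and 1.58 in WT and 2.39 and 2.71 in MI, a rise of 1.49 ± 0.33 (limma adjusted p = 0.034). Its 4 spots on WT replicate 1 ran from 51 to 2044 in net Cy3, across the range of 1483 to 2027 on MI replicate 1, so by spot the groups overlapped. Its Cy5 signal moved with it: net Cy5 was 398 and 404 on the WT arrays and 570 and 742 on the MI arrays. It was called under no other scaling. The part of that Cy5 shift, or of the low spot, in the result was not tested. miR-133b, its neighbour on chromosome 1 (both within chr1:20679010-20682887, +), changed by 0.42 (limma adjusted p = 0.128), and miR-1 by -0.27 (adjusted p = 0.485).

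The rises without a family were led by miR-706. It read 1247 and 1348 in net Cy3 in WT and 2914 and 3129 in MI, with steady net Cy5 of 374 and 304 against 312 and 340. Its ratio rose by 1.72 ± 0.23 (limma adjusted p = 0.0067), 3.29-fold. With Cy3 alone the change was 0.95 and was not called (adjusted p = 0.0774).

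miR-491, within the span of Focad (chr4:88122040-88122125, +), read 341 and 326 in net Cy3 in WT and 612 and 723 in MI. Its ratio was 1.72 and 1.88 in WT and 3.05 and 3.10 in MI, and rose by 1.28 ± 0.13 (limma adjusted p = 0.00447). miR-801 rose by 1.35 ± 0.20 (limma adjusted p = 0.00983), from net Cy3 of 483 and 488 to 854 and 892. miR-342, within the span of Evl (chr12:108658620-108658718, +), rose by 1.08 ± 0.20 (limma adjusted p = 0.0203). miR-674 rose by 1.00 ± 0.15 (limma adjusted p = 0.00985), although its spots on WT replicate 1 ran from 349 to 1204 in net Cy3 and overlapped those on both MI arrays. Of the other 4 scalings, 1 called miR-342, 1 called miR-674, and all 4 called miR-491 and miR-801.

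miR-202 and miR-715 rose by 1.32 ± 0.27 (limma adjusted p = 0.0284) and 1.20 ± 0.19 (adjusted p = 0.0117). Spots of miR-202 read up to 1053 in net Cy3 in WT and from 721 in MI, and so overlapped. miR-202 and miR-715 were brighter in Cy5 too, on average 1.36 and 1.47 times as bright on the MI arrays. miR-760 and miR-184 rose by 0.83 and 0.64 with Cy5 signals 1.52 and 1.96 times as bright. Of the 46 called microRNAs 3 changed by over 0.5 in Cy5 (miR-184, miR-206 and miR-760), and 14 of all 294 did. With the processed ratios miR-184 changed by -0.26. In the Cy5 channel as a whole limma called 0 microRNAs between MI and WT, with 44 at an unadjusted p under 0.05. miR-383 had a large change of 1.45 that was not called (limma adjusted p = 0.0581).

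Smaller rises included microRNAs whose Cy3 signal hardly moved. For miR-543 the net Cy3 was 438 and 376 in WT and 378 and 442 in MI, although its ratio rose by 0.58 ± 0.12 (limma adjusted p = 0.0275). miR-218 rose by 0.45 with loess and changed by -0.08 with Cy3 alone. miR-99a rose by 0.73 with loess and changed by 0.09 with Cy3 alone. In contrast, miR-423 had ratios of 0.48 and 0.43 in WT and 1.07 and 1.07 in MI, rose by 0.62 ± 0.10 (limma adjusted p = 0.0132), and was called under 3 of the other 4 scalings. The remaining calls of this size, miR-338, miR-449, miR-19a, miR-672, miR-214, miR-345, miR-665, miR-497 and miR-151, rose by between 0.51 and 0.82. Of these, miR-338, miR-449, miR-19a, miR-672, miR-665 and miR-497 were called under no other scaling.

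Some genomic clusters held both called and uncalled members. Of all 294 tested microRNAs 9.18% were called higher and 6.46% lower. In the Clcn5 cluster on chromosome X, 2 of 5 members were called lower, miR-532 by 0.51 ± 0.12 (limma adjusted p = 0.0411) and miR-501 by 0.48 ± 0.11 (adjusted p = 0.034), and the median was -0.38. Both, and miR-362 with a change of -0.38, were well above background in Cy3 on both WT arrays and on 0 of 2 MI arrays. Net Cy3 of miR-501 was 81.0 and 59.8 in WT and 42.8 and 47.3 in MI. As bounds, the Cy3 signal was at least 1.13-fold lower for miR-532 and at least 1.20-fold lower for miR-501. miR-188 and miR-500 of the same cluster changed by 0.94 (limma adjusted p = 0.056) and 0.18 (adjusted p = 0.442), with both arrays of either group above background.

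Of 7 Sfmbt2 cluster members, repeat-derived microRNAs, 2 fell, beside 6.46% of all tested microRNAs, and the cluster median was -0.09. miR-466 had ratios of 2.03 and 1.96 in WT and 1.18 and 1.05 in MI and fell by 0.88 ± 0.11 (limma adjusted p = 0.00604). miR-467* fell by 0.85 ± 0.14 (limma adjusted p = 0.0132), with spots from 188 in net Cy3 in WT and up to 231 in MI. Among the other members, miR-669b changed by -0.18 and miR-297b by 0.09, neither called.

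The imprinted Dlk1-Dio3 cluster held 40 tested members, of which 2 rose (miR-543 and miR-665) and 2 fell (miR-299 and miR-127), with a median of -0.04. The rises were called under no other scaling. miR-299 fell by 0.45 ± 0.11 (limma adjusted p = 0.0451) and was called under all scalings. miR-127 fell by 0.44 ± 0.11 (limma adjusted p = 0.0491). Over all tested microRNAs 9.18% were called higher and 6.46% lower.

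Among 12 members of the miR-17-92 cluster and its paralogs, which promote proliferation, miR-17-5p fell by 0.46 ± 0.11 (limma adjusted p = 0.0405) and miR-19a rose by 0.74 ± 0.16 (adjusted p = 0.034), with a median of -0.11. Neither was called under another scaling, and over all tested microRNAs 15.6% were called with loess. The probe of miR-19b differs from that of miR-19a at 1 of 22 bases and changed by -0.17. In the miR-15/16 family, which restrains cell cycle genes, miR-15b fell by 0.82 ± 0.15 (limma adjusted p = 0.0178) and miR-497 rose by 0.53 ± 0.10 (adjusted p = 0.0271), among 6 members with a median of -0.37. No other scaling called miR-497, and 1 of 4 called miR-15b. miR-16, next to miR-15b within the span of Smc4 (chr3:69009772-69009996, +) and also encoded on chromosome 14, changed by -0.81 (adjusted p = 0.0779).

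Families without a call, beside 15.6% called over all tested microRNAs, included let-7, miR-29, miR-30, miR-103 and miR-107, miR-148 and miR-152, and miR-125. The 9 let-7 members, which accumulate as stem cells differentiate, had a median change of -0.00 and ranged from -0.30 to 0.65. The miR-29 family had a median of -0.47 and the miR-30 family one of 0.25, with 0 calls in either. The miR-183 and miR-182 cluster had a median of -0.27 over 3 members. In the miR-23/24/27 clusters miR-23a fell by 0.60 ± 0.14 (limma adjusted p = 0.0424) and the other 4 were not called. miR-23b, whose probe differs at 1 base, changed by -0.55 (adjusted p = 0.0581).

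Marker lists of other cell types stand beside 46 calls among all 294 tested microRNAs (15.6%), so 0 calls in a short list say little. Blood (8 members), endoderm and liver (5) and Hox cluster microRNAs (5) had 0 calls, with medians of 0.25, 0.06 and 0.33. Of these, only 3, 1 and 2 were well above background in Cy3 on all MI and WT arrays. Among 7 mesenchymal markers miR-214 rose by 0.72 ± 0.12 (limma adjusted p = 0.0137), with net Cy3 of 1518 and 1064 in WT and 1684 and 2210 in MI. The others lay between -0.58 (miR-21) and 0.72 (miR-143) and were not called. The 8 microRNAs linked to p53, a pathway tied to DNA damage, had 0 calls with loess and a median of -0.05. Among them miR-34a was at -0.53 (limma adjusted p = 0.0843) and was called lower under 2 other scalings. In the miR-34 and miR-449 family miR-449 rose by 0.79 ± 0.19 (limma adjusted p = 0.0424) and was called under no other scaling. In the miR-99/100 family miR-99a was the 1 call among 3, all with positive changes.

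miR-155, a microRNA of immune cells encoded in Mir155hg (chr16:84714140-84714204, +), was not called in MI. Its net Cy3 was 48.9 and 56.0 in WT, not well above background on either array, and 74.8 and 68.0 in MI, well above it on both. Its ratio changed by 0.24 (95% interval -0.13 to 0.61, limma adjusted p = 0.286).

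By seed, 14 groups of at least 3 tested microRNAs could be formed. The group ACAUUCA (miR-181) had all 3 members called in 1 direction. Calls were 2 of 4 for AGUGCAA (miR-130a and miR-130b), 1 of 6 for AAAGUGC (miR-17-5p), 1 of 5 for AUUGCAC (miR-367), 1 of 3 for AAGUGCU (miR-302d), 1 of 4 for GGCAGUG (miR-449) and 1 of 3 for ACCCGUA (miR-99a). AGCAGCA had 1 rise and 1 fall among 6. The other 6 groups had 0 calls. Beside the 46 of 294 called over all tested microRNAs (15.6%), a single call in a group this small says little about its seed. The called rises had a median GC content of 48.9% (n = 24 matched sequences), the called falls 40.9% (n = 15) and all matched sequences 45.5% (n = 239). Across these 239 microRNAs, GC content and change had a Spearman rho of 0.18, given as a description since the points share arrays.

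MI was also set directly against RQ, which tests whether the 2 mutant groups differ. Of 294 microRNAs, 32 passed (limma, 10.9%), 23 higher in MI (7.82%) and 9 lower (3.06%). This split depends on the scaling: median centring gave 12 higher and 19 lower, Cy3 alone 21 and 15, the processed ratios 16 and 11, and loess on bright probes 6 and 4. Of the 46 microRNAs called in MI minus WT, 12 were among the 32. Without MI replicate 1, MI replicate 2 or RQ replicate 2 the count was 0, with 60, 47 and 58 at an unadjusted p under 0.05, and without RQ replicate 1 it was 1. The differences below thus need all 4 mutant arrays to pass.

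The miR-302 and miR-367 cluster was lower in MI than in RQ. miR-302d had ratios of 3.57 and 3.53 in RQ, between those of WT and MI, and MI minus RQ was -1.08 ± 0.12 (log2, SE; limma adjusted p = 0.0146). For miR-367 the RQ ratios of 1.43 and 1.40 lay above both WT arrays, and MI minus RQ was -0.88 (adjusted p = 0.0146). miR-302 followed at -1.33 (limma adjusted p = 0.0394), with RQ ratios of 2.87 and 2.73.

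Of the miR-26 pair, miR-26b was called between the mutants and miR-26a was not. For miR-26b the RQ ratios were -0.95 and -0.68, both above the WT replicate 2 value of -1.27, and MI minus RQ was -1.46 (limma adjusted p = 0.0146). miR-26a had RQ ratios of -2.09 and -1.86 beside -1.86 and -2.02 in MI, and the difference was 0.03 (limma adjusted p = 0.885). In net Cy3, before scaling, its spots read 252 to 357 in MI and 424 to 510 in RQ. Whether miR-26a and miR-26b differ from each other here was not tested. miR-302d, miR-367 and miR-26b kept their MI minus RQ call under all 5 scalings.

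miR-181a, miR-181c, miR-7, miR-491, miR-706, miR-715, miR-214 and miR-423 had higher loess ratios in MI than in RQ, by 0.43 to 1.45. In each the ratios of the RQ arrays lay below those of both MI arrays. In net Cy3, before scaling, spots of miR-181a, miR-181c, miR-7, miR-491 and miR-706 overlapped between MI and RQ, and those of miR-715 did not. For miR-7 they read 421 to 622 in MI and 455 to 561 in RQ. miR-181b had a difference of 0.46 and was not called (limma adjusted p = 0.0855). RQ was called against the same WT arrays for 63 microRNAs (21.4%), 22 higher (7.48%) and 41 lower (13.9%), so both comparisons share their controls. Against these arrays the changes were 1.28 in MI and 0.62 in RQ for miR-181a, and 1.56 and 0.94 for miR-7. miR-200a was not called between the mutants: MI minus RQ was -0.16 (limma adjusted p = 0.593). Its change against the same WT arrays was -1.59 in MI and -1.44 in RQ. In net Cy3, before scaling, its spots read 404 to 550 in MI and 788 to 1027 in RQ, without overlap.

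**Figure D5:**
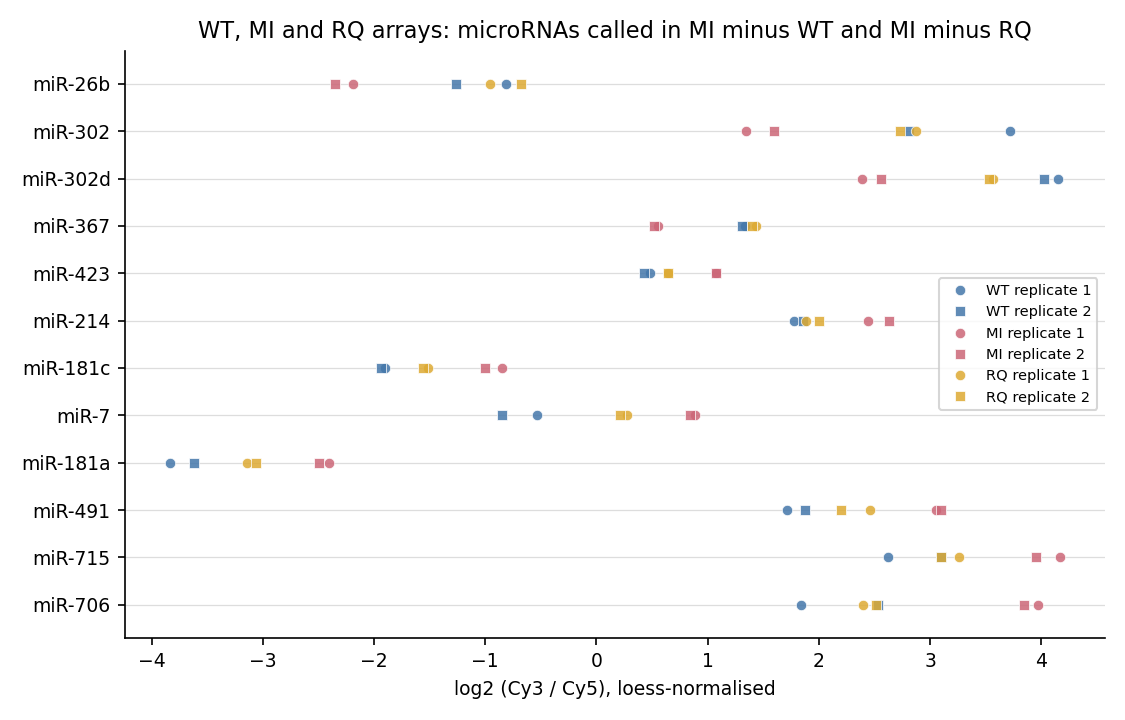
Loess-normalised log2 Cy3 over Cy5 ratio on all 6 arrays (blue WT, red MI, yellow RQ; circle replicate 1, square replicate 2) for the 12 microRNAs called both in MI minus WT and in MI minus RQ. The red points of the top 4 rows lie left of all yellow points, those of the other 8 rows right of them.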

How the data were processed

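Per the file headers, the deposited scanner files of 6 arrays were made with Feature Extraction 9.5.1.1 of Agilent, with RNA labelled by T4 RNA ligase, per the labels' protocols. Per the file headers, they list linear spot and background intensity for each dye. The deposited log10 ratio of a spot, and the deposited series table, were made by the authors from processed intensities and were used only as an alternative. Here, background was corrected by normexp with an offset of 50, and each array was loess-normalised, with weight 0 for control and scanner-marked outlier spots (limma 3.58.1, R 4.3.3). Outlier spots were dropped (60 to 99 per array) and the rest of a probe's 4 spots averaged as log2 ratios. Tested were probes that on 2 or more arrays had over 0.5 of their spots well above background in Cy3 or Cy5. Groups were compared with lmFit and eBayes on all 6 arrays (3 residual and 2.99 prior degrees of freedom), with Benjamini-Hochberg adjustment over 294 probes. The number of arrays limits the precision. The fit was tested on simulated data.

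Named were the 12 largest rises and falls, every called list member, up to 4 members per list with a call, seed groups of at least 3, and miR-155; other names were chosen after their values were seen. Members and lists were chosen with earlier results of these data known. Sequences matched probes with up to 3 bases of difference at the 3′ end and 2 at the 5′ end. Coordinates are of GRCm38.p6. The series' other features were not analysed here. Alternatives covered scaling, offset, filters, outlier spots, the average over spots, the arrays fitted, the replicate block and each array left out.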

Additional observations from a re-analysis of the deposited data

Results flagged for a closer look

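The 2 mutant groups differed in 18 of the microRNAs described (MI minus RQ, log2, limma adjusted p under 0.05). Lower in MI were miR-26b (-1.46), miR-302 (-1.33), miR-155 (-1.11), miR-302d (-1.08), miR-367 (-0.88), miR-34a (-0.79) and miR-302c* (-0.74). Higher in MI were miR-706 (1.45), miR-27b (1.19), miR-294 (1.14), miR-145 (0.97), miR-715 (0.88), miR-491 (0.75), miR-181a (0.65), miR-7 (0.62), miR-181c (0.61), miR-214 (0.59) and miR-423 (0.43). With Cy3 alone the difference of miR-294 was 0.00 and that of miR-214 was -0.15. miR-155, miR-27b, miR-145, miR-34a and miR-302c* were not called in MI minus WT. The RQ values of miR-155 rest on few spots. On RQ replicate 1, 2 of its 4 spots were marked as outliers and the others read 142 to 701 in net Cy3. On RQ replicate 2, 3 of 4 were marked and the remaining spot read 334. None of the 18 kept its call when MI replicate 1, MI replicate 2, RQ replicate 1 or RQ replicate 2 was left out.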

How the results depend on the processing

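Of 1526 values of 85 single microRNAs under other settings, 1187 kept their side of the threshold, 286 lost the call and 51 gained one. The 1187 include values that changed sign with no call under either setting, such as miR-1, at -0.27 with loess and 0.005 with median centring. The last 2 were called with loess and changed sign: miR-184 was at -0.26 with the processed signals and miR-218 at -0.084 with Cy3 alone. In MI minus RQ, miR-214 changed sign with median centring (-0.15) and Cy3 alone (-0.15). The cause was not tested in any of these.

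MI minus WT had 46 calls, 27 higher and 19 lower. The higher calls numbered 17 with median centring, 10 with Cy3 alone, 9 with the processed signals and 14 when loess used bright probes. With an offset of 10 there were 65 calls, 36 higher and 29 lower. With the MI and WT arrays only, fewer arrays gave 27 calls, 16 higher and 11 lower. Leaving out 1 array gave 6 to 63 calls, 3 to 41 higher and 3 to 22 lower. In MI minus RQ, 32 calls became 10 with loess on bright probes and 14 with outlier spots kept. They became 17 with outlier spots kept in the loess curve, an alternative chosen after seeing the data, and 0 to 48 with 1 array left out. The reference channel had 0 calls, and 0 to 1 with 1 array left out. Under the other settings the total calls of each comparison stayed within 1.5 times. By direction, the 23 higher and 9 lower calls of MI minus RQ became 12 and 19 with median centring and 21 and 15 with Cy3 alone.

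Replicate numbers did not pair the samples: deviations from the group means correlated at 0.18 between WT and MI, 0.12 between WT and RQ and 0.04 between MI and RQ. With the replicate number as a block MI minus WT had 39 calls, 34 of them among the 46, and MI minus RQ had 38. Signals near background limit miR-501, miR-532, miR-362 and, in Cy5, miR-302, miR-302d and miR-367.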
